A study of Mus musculus with 6 samples.

Results

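The genes described here are 56 mouse genes for G-protein-coupled receptors of monoamines, acetylcholine, purines, peptides and signalling lipids, chosen by name from a list of receptor families, out of 43346 Ensembl genes in the count tables. The choice was made with earlier results of these data known. RNA was measured by RNA-seq in cultured mouse retinal ganglion cells (RGCs), the neurons whose axons form the optic nerve. The cells were transduced with an adeno-associated virus (AAV) that carried EGFP alone (control), wild-type Sox11 with EGFP (Sox11), or Sox11 with lysine 91 changed to alanine and EGFP (Sox11 K91A, in which a site for attachment of the small protein SUMO is lost), with 2 libraries in each of the 3 groups. Sox11 is a transcription factor of the SoxC family. All cells were purified by immunopanning with an antibody to CD90.1 (Thy1), grown in medium with forskolin (a drug that activates adenylyl cyclase), BDNF and CNTF, given virus 4 h after plating and lysed 72 h after plating. The study's RNA-seq methods and its discussion name embryonic day 18 for the RGCs sequenced. The labels give embryonic day 18 in one protocol and postnatal day 2 in another for these RGCs. Since the deposited tables are named for the day of birth, the age remains uncertain. The study's methods speak of 3 RNA samples sequenced in duplicate. Since nothing states that the 2 libraries of a group came from separate cultures, p-values measure only the spread between these libraries, which may be technical in part; counts of sex-linked genes, given below, differed between the libraries of 2 groups.

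G-protein-coupled receptors pass the binding of a transmitter, peptide or lipid at the cell surface to a G protein inside the cell. Receptors that couple to Gs raise cyclic AMP through adenylyl cyclase, those that couple to Gi lower it and act on potassium and calcium channels, and those that couple to Gq activate phospholipase C beta and release calcium from stores. In the retina, dopamine, acetylcholine and neuropeptides come largely from amacrine cells, adenosine and ATP act as local modulators, and RGCs carry receptors for many of these ligands.

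The 6 libraries held between 27521982 and 37061718 expected counts, and 15747 genes passed the filter on low counts and were tested. Sox11 itself was at 234 and 332 CPM (counts scaled to library size) in the control libraries, 9178 and 14591 in the Sox11 libraries, and 11971 and 7026 in the Sox11 K91A libraries. The values of the Sox11 and Sox11 K91A libraries overlapped for this gene. The general RGC markers Rbpms (194 to 242 CPM over all libraries) and Pou4f1 (321 to 428 CPM) were high in every library. Other RGC markers, Thy1 among them, were lower with Sox11 and are given after the receptors. The markers of astrocytes and of the oligodendrocyte lineage Gfap and Olig2 were at 0. Control replicate 2 and Sox11 replicate 2 stood apart from the other libraries in Xist, the RNA of the inactive X chromosome, with 3697 and 8413 counts against 11191 to 16303 in the other libraries. The Y-linked gene Eif2s3y ran the other way, with 969 and 1124 counts in these 2 libraries against 214 to 406 in the others. Several markers of amacrine cells were also low in them and are given after the receptors.

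Of the 56 receptors, 41 passed the filter and were tested. None of the 56 was at 0 in all 6 libraries. Htr4, P2ry12, Npy2r, Vipr1 and Oprk1 had at most 3 counts in every library. Another 10 receptors, Adra2b, Htr1a, Htr2c, Chrm1, Adora2b, P2ry2, Npy5r, Oprm1, Oprd1 and Lpar1, had more than 3 counts in at least 1 library and were not tested, with at most 18 counts in any library. P2ry2, a Gq-coupled receptor for ATP and UTP, had 12 and 8 counts in the control libraries, 0 and 0 in the Sox11 libraries and 7 and 9 in the Sox11 K91A libraries. The mean of its control libraries was 3.19-fold the floor of 3 counts per library in the Sox11 group (0.0998 CPM), by counting alone and with no test. Control replicate 2, at 0.208 CPM, lay closer to that floor. Chrm1, the M1 muscarinic receptor, had 0 counts in both control libraries, 3 and 0 with Sox11, and 9 and 5 with Sox11 K91A. The mean of its Sox11 K91A libraries was 2.43-fold the floor in control (0.0926 CPM). Sox11 K91A replicate 2, at 0.171 CPM, lay closer to that floor. Htr7 passed the filter only through the control libraries, and Ednra passed it with no control library above the limit of 0.323 CPM.

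In control RGCs the most abundant receptor transcript was that of Adora1, the A1 adenosine receptor (Gi), at 136 and 84.4 TPM (a level corrected for library size and transcript length). Chrm3, the M3 muscarinic receptor (Gq), followed at 47.2 and 42.9 TPM, and Adra1b, the alpha-1B adrenergic receptor (Gq), at 33.9 and 47.1 TPM. Adora1 did not overlap Chrm3, whereas Chrm3 and Adra1b overlapped. The next were Cnr1, the CB1 cannabinoid receptor (19.3 and 13.4 TPM), Oprl1, the nociceptin receptor (15.3 and 17.4 TPM), Cckbr, the cholecystokinin B receptor (15.2 and 17 TPM), Adcyap1r1, the PACAP receptor PAC1 (16.3 and 15.0 TPM), Adra2a, the alpha-2A adrenergic receptor (20.9 and 7.77 TPM), S1pr2, a receptor for sphingosine 1-phosphate (15.6 and 12 TPM), and Htr1b, the serotonin 1B receptor (15.0 and 6.24 TPM). These 7 formed a group in which each overlapped its neighbour in the order of levels, and Adra1b lay above Cnr1 without overlap. The opposite strand of Adora1 holds exons of Mybph over 20.1% of its exonic bases, and that of Htr1b holds an antisense gene over 18%, and whether counting used strand is not given in the sources used here.

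**Figure D1:**
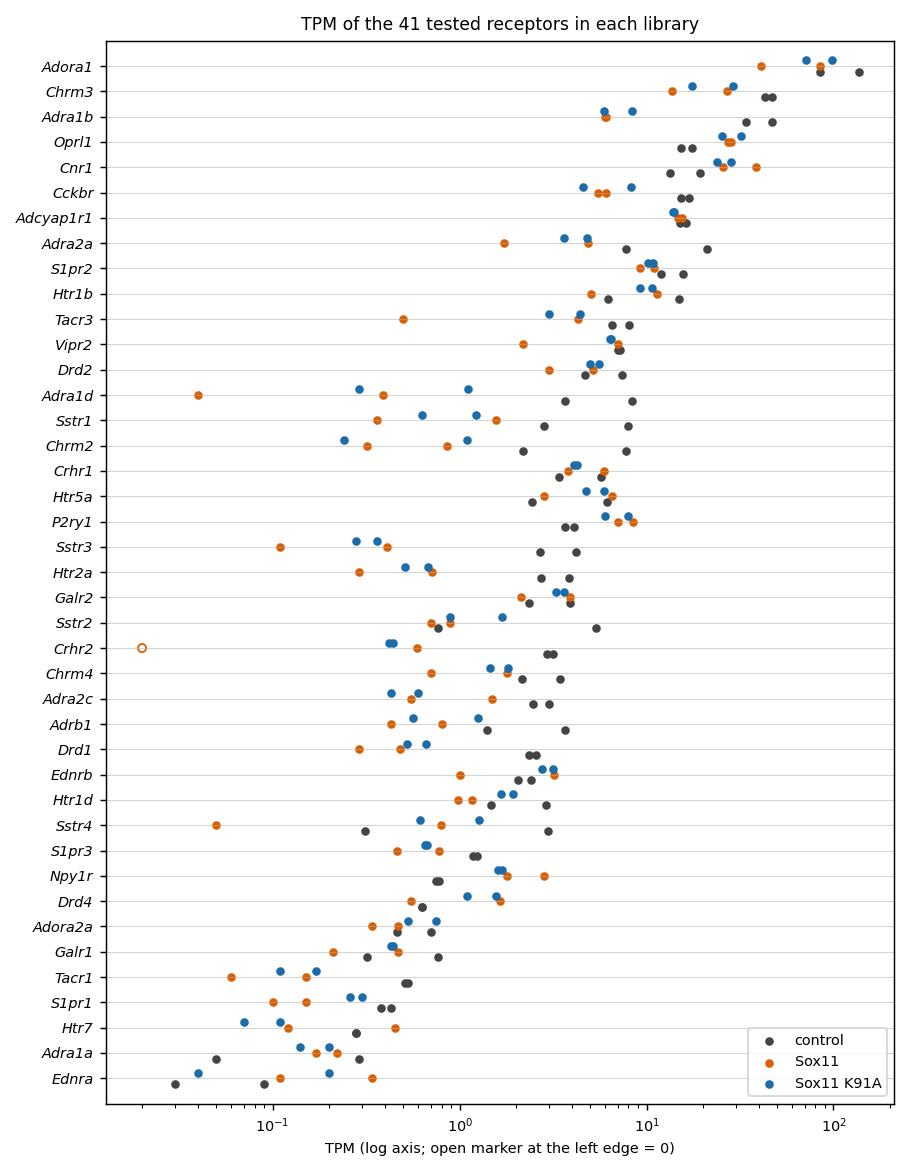
TPM on a log axis of the 41 tested receptors in each of the 6 libraries, ordered by the mean of the control libraries (2 points per group and receptor, open marker for a value of 0). Adora1 was the highest by mean in every group, and Adra1b, at rank 3 in control with 33.9 and 47.1 TPM, sat at 5.94 to 8.32 TPM in the 4 libraries with Sox11 or Sox11 K91A.

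The order of the levels differed between groups. Adora1 ranked first by mean TPM in all 3 groups and made up 20.1 to 33.9% of the summed TPM of the 56 receptors in each library. Adra1b ranked 3rd in control, 9th with Sox11 and 8th with Sox11 K91A. Cnr1 ranked 4th, 2nd and 3rd, and Oprl1 5th, 3rd and 2nd. The summed TPM of all 56 receptors was 439 and 338 in control, 278 and 203 with Sox11, and 254 and 289 with Sox11 K91A, so that both control libraries lay above the 4 others. These are levels in bulk RNA, in which fewer cells of a type and less RNA per cell cannot be told apart.

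Sox11 against control asked which receptor genes responded to extra Sox11. With Sox11, 15 of the 41 tested receptors passed the threshold (36.6%), 11 of them lower and 4 higher than control, where 20.1% of all 15747 tested genes passed it (10.2% lower and 9.96% higher). The threshold was an adjusted p under 0.05 over all tested genes (limma-voom, Benjamini-Hochberg) and a fold change above 1.2. The 11 that fell were Adra1b, Adra1d, Adra2a, Adra2c, Drd1, Htr2a, Chrm3, Crhr2, Sstr3, Tacr1 and Cckbr, and the 4 that rose were P2ry1, Npy1r, Oprl1 and Cnr1. The median log2 fold change of the 41 receptors was -1.02, against 0.01 over all tested genes, and 33 of 41 were below 0. Since the members were chosen with earlier results of these data known, such shares describe the list and do not test it. The 12 further tested receptors of the same families, given below, had a median of 0.54. Among them, Sctr passed the filter only through the libraries with Sox11 or Sox11 K91A. Both Sox11 libraries lay below both control libraries for 24 receptors (58.5%, against 30.6% of all genes) and above them for 5 (12.2%, against 30.9%), in all 29 without overlap (70.7%, against 61.5%). Without Sox11 replicate 2, 0 of the 41 receptors and 0% of all genes passed by limma-voom, with 15 receptors at an unadjusted p under 0.05. The receptors numbered 9 without control replicate 1 (22%, against 23.8% of all genes), 10 without control replicate 2 (24.4%, against 11.1%), 7 without Sox11 K91A replicate 1 (17.1%, against 10%) and 6 without Sox11 K91A replicate 2 (14.6%, against 9.81%).

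**Figure D2:**
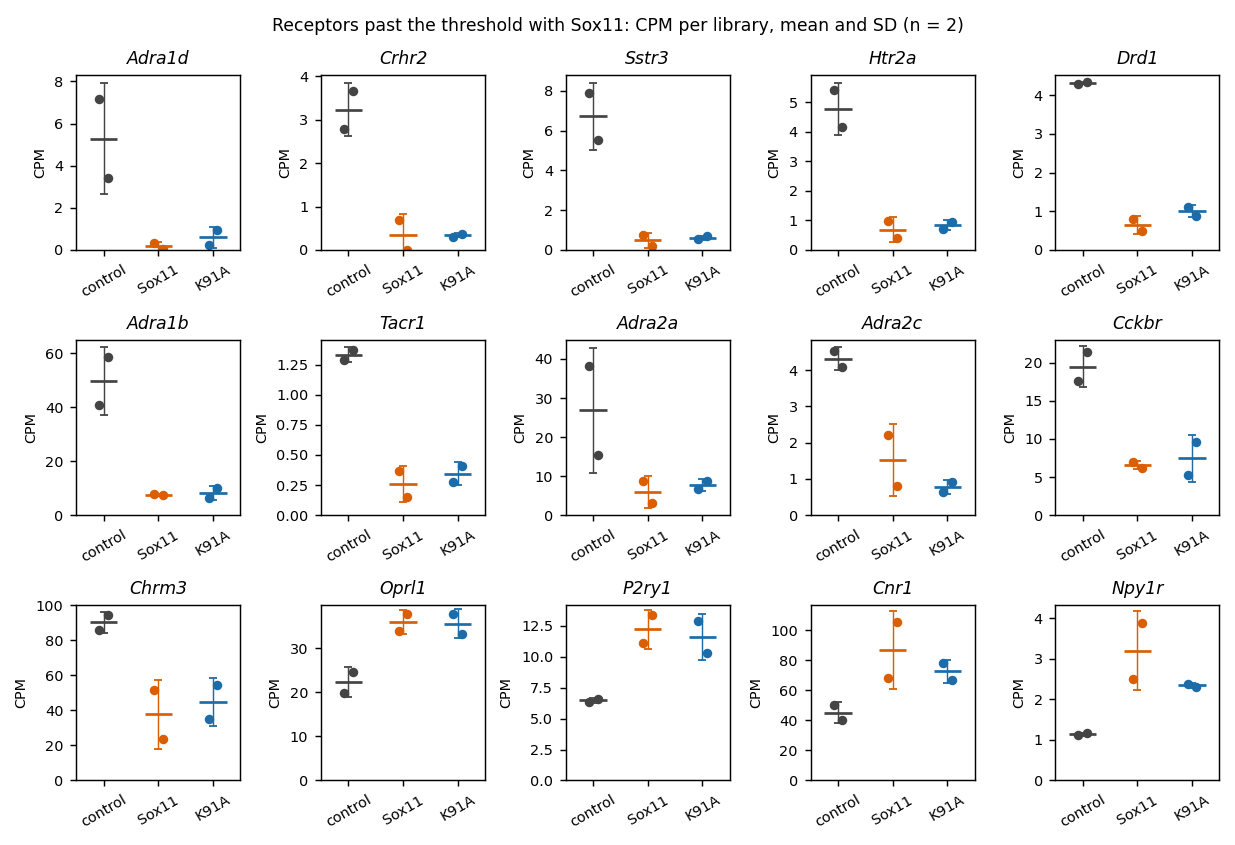
CPM on a linear axis from 0 of the 15 receptors past the threshold with Sox11, in 2 libraries each of control, Sox11 and Sox11 K91A, with the mean (horizontal line) and SD (bar). In the first 11 panels the 4 libraries with Sox11 or Sox11 K91A lay below both control libraries, and in the last 4 they lay above them. The receptors were picked by the test of Sox11 on these values, and both viruses share the control libraries.

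The adrenergic receptors, which bind noradrenaline and adrenaline, held 4 of the 11. Of 7 listed, 6 were tested and 4 fell with Sox11, all but Adra1a and Adrb1, where 10.2% of all genes fell. Adra1b was at 40.7 and 58.5 CPM in control, 7.86 and 7.30 with Sox11, and 6.55 and 10.1 with Sox11 K91A. Its Sox11 libraries were close together, and no library with either virus overlapped the control. The log2 fold change was -2.70 ± 0.29 (SE, adjusted p = 0.011) with Sox11 and -2.60 ± 0.29 (adjusted p = 0.0124) with Sox11 K91A. Adra1d, the alpha-1D receptor (Gq), was at 7.16 and 3.42 CPM in control, 0.328 and 0.0302 with Sox11, and 0.248 and 0.960 with Sox11 K91A. In counts this was 200 and 132, then 9 and 1, then 8 and 28, so that Sox11 replicate 2 held a single read. On the log2 scale it changed by -5.33 ± 1.23 (adjusted p = 0.0295) with Sox11 and -3.26 ± 0.85 (adjusted p = 0.0542, not past the threshold) with Sox11 K91A. An antisense gene overlaps 7.7% of the exonic bases of Adra1d.

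Adra2a, the alpha-2A receptor (Gi), was at 38.2 and 15.5 CPM in control, 8.77 and 3.08 with Sox11, and 6.61 and 8.81 with Sox11 K91A. Replicate 1 was the higher in control and with Sox11, and the groups did not overlap the control. The fitted log2 fold change was -2.22 ± 0.62 (adjusted p = 0.0481) with Sox11 and -1.63 ± 0.57 (adjusted p = 0.108) with Sox11 K91A. Adra2c, the alpha-2C receptor (Gi), was at 4.54 and 4.10 CPM in control, 2.22 and 0.814 with Sox11, and 0.652 and 0.926 with Sox11 K91A. Its log2 fold change was -1.71 ± 0.46 (adjusted p = 0.0437) with Sox11 and -2.45 ± 0.53 (adjusted p = 0.0359) with Sox11 K91A. Adrb1, the beta-1 receptor (Gs), lay below control in both comparisons at 118 and 68 counts in control against 25 and 16 with Sox11 and 21 and 43 with Sox11 K91A, and did not pass the test (adjusted p = 0.0864 with Sox11). Adra1a had 4 to 13 counts per library.

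Among receptors for dopamine, serotonin and acetylcholine, the members that passed were Drd1, Htr2a and Chrm3. They were 1 of 3, 1 of 5 and 1 of 3 tested members, where 10.2% of all genes fell with Sox11. Drd1, the D1 dopamine receptor (Gs), was at 4.29 and 4.33 CPM in control, 0.801 and 0.483 with Sox11, and 1.12 and 0.892 with Sox11 K91A. On the log2 scale it changed by -2.78 ± 0.42 (adjusted p = 0.0128) with Sox11 and -2.09 ± 0.37 (adjusted p = 0.0245) with Sox11 K91A. Drd2 and Drd4, which couple to Gi, did not pass: Drd2 had a log2 fold change of -0.67 with Sox11 and Drd4 of 0.43. Htr2a, the serotonin 2A receptor (Gq), was at 5.40 and 4.15 CPM in control, 0.983 and 0.392 with Sox11, and 0.714 and 0.960 with Sox11 K91A. The log2 fold change of Htr2a was -2.92 ± 0.51 (adjusted p = 0.0162) with Sox11 and -2.48 ± 0.47 (adjusted p = 0.0273) with Sox11 K91A. The other 4 tested serotonin receptors, Htr1b, Htr1d, Htr5a and Htr7, did not pass, and the Sox11 and control libraries overlapped for each of them.

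Chrm3 was the more abundant of the muscarinic receptors, at 86.0 and 94.5 CPM in control, 51.6 and 23.8 with Sox11, and 35.3 and 54.5 with Sox11 K91A. The fitted log2 fold change was -1.38 ± 0.36 (adjusted p = 0.0394) with Sox11 and -1.04 ± 0.35 (adjusted p = 0.1) with Sox11 K91A, where no library overlapped the control. Chrm2, the M2 receptor (Gi), had 601 and 255 counts in control, 65 and 29 with Sox11 and 22 and 90 with Sox11 K91A. The log2 fold changes of Chrm2, -2.99 and -2.97, were larger than that of Chrm3, and neither passed (adjusted p = 0.0676 and 0.09). Chrm4 lay below control in both comparisons and did not pass either.

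The peptide receptors held 4 of the receptors that fell and 2 of those that rose, among 17 tested of 23 listed, where 10.2% of all genes fell and 9.96% rose. Sstr3, a somatostatin receptor (Gi), was at 7.91 and 5.53 CPM in control, 0.764 and 0.211 with Sox11, and 0.528 and 0.686 with Sox11 K91A. Its log2 fold change was -4.00 ± 0.62 (adjusted p = 0.0135) with Sox11 and -3.40 ± 0.56 (adjusted p = 0.0213) with Sox11 K91A. Sstr1, another somatostatin receptor, did not pass, at 185 and 94 counts in control against 33 and 9 with Sox11 and 17 and 28 with Sox11 K91A (adjusted p = 0.0638 and 0.101). Sstr2 was at 21 and 174 counts in the control libraries, and Sstr4 at 51 and 8, a spread between replicates in which neither passed.

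Cckbr, a Gq-coupled receptor for cholecystokinin and gastrin, was at 17.6 and 21.3 CPM in control, 6.92 and 6.15 with Sox11, and 5.28 and 9.60 with Sox11 K91A. On the log2 scale it changed by -1.58 ± 0.30 (adjusted p = 0.0182) with Sox11 and -1.47 ± 0.29 (adjusted p = 0.0295) with Sox11 K91A. Crhr2, a receptor for urocortins (Gs), had 78 and 141 counts in control, 19 and 0 with Sox11, and 10 and 11 with Sox11 K91A. The single library at 0 was again Sox11 replicate 2, and the log2 fold change of -5.12 ± 1.29 (adjusted p = 0.0366) with Sox11 was -2.20 without it (adjusted p = 0.114), while that with Sox11 K91A was -3.19 ± 0.94 (adjusted p = 0.0729). Crhr1, the receptor for corticotropin-releasing hormone, had a log2 fold change of -0.02 with Sox11, with overlapping libraries. Tacr1, the substance P receptor (Gq), had 36 and 53 counts in control, 10 and 5 with Sox11, and 9 and 12 with Sox11 K91A. The fitted log2 fold change was -2.46 ± 0.60 (adjusted p = 0.0337) with Sox11 and -1.93 ± 0.55 (adjusted p = 0.0684) with Sox11 K91A. Tacr3, the neurokinin B receptor, had 404 and 497 counts in control, 210 and 29 with Sox11 and 176 and 236 with Sox11 K91A, and did not pass (adjusted p = 0.0561 with Sox11).

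Each of the 4 receptors that rose with Sox11 had both Sox11 libraries and both Sox11 K91A libraries above both control libraries. Of all genes, 30.9% lay above control in this way with Sox11 and 31.2% with Sox11 K91A. The 4 were picked by the test on these values, and both viruses shared the control libraries, so the separation is no further support. Cnr1, which couples to Gi and lowers transmitter release, was at 49.9 and 40.3 CPM in control, 68.4 and 105 with Sox11, and 77.9 and 67.0 with Sox11 K91A. Its log2 fold change was 0.92 ± 0.23 (adjusted p = 0.0365) with Sox11 and 0.69 ± 0.23 (adjusted p = 0.0995) with Sox11 K91A. Oprl1 (Gi) was at 20.0 and 24.7 CPM in control, 34.0 and 37.9 with Sox11, and 37.9 and 33.2 with Sox11 K91A. On the log2 scale it changed by 0.68 ± 0.17 (adjusted p = 0.037) with Sox11 and 0.66 ± 0.17 (adjusted p = 0.0549) with Sox11 K91A, so that the 2 values differed by less than their errors while only the first passed. P2ry1, a receptor for ADP (Gq), was at 6.32 and 6.62 CPM in control, 11.1 and 13.4 with Sox11, and 12.9 and 10.3 with Sox11 K91A. The fitted log2 fold change was 0.92 ± 0.23 (adjusted p = 0.0369) with Sox11 and 0.83 ± 0.23 (adjusted p = 0.0646) with Sox11 K91A. An antisense gene overlaps 23.1% of the exonic bases of P2ry1. Npy1r, a receptor for neuropeptide Y (Gi), was at 1.11 and 1.17 CPM in control, 2.51 and 3.89 with Sox11, and 2.39 and 2.30 with Sox11 K91A. Its log2 fold change was 1.46 ± 0.39 (adjusted p = 0.0418) with Sox11 and 1.03 ± 0.40 (adjusted p = 0.139) with Sox11 K91A.

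Leaving out Sox11 replicate 2 moved the log2 fold change of 7 of the 15 receptors past the threshold by over 1.5 times as a fold and ended every call: Adra1d to -3.79, Adra2a to -1.43, Adra2c to -0.95, Htr2a to -2.23, Crhr2 to -2.20, Sstr3 to -3.06 and Tacr1 to -1.82. Leaving out Sox11 replicate 1 moved Adra1d to -6.73 and Adra2a to -2.93, where neither passed, and Adra2c to -2.38, Htr2a to -3.53, Crhr2 to -7.75 and Sstr3 to -4.85. Adra2a was at -1.63 without control replicate 1, where it did not pass (adjusted p = 0.0625), and at -2.93 without control replicate 2, and Adra1d at -5.93 without control replicate 2.

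By coupling, 6 of 11 tested Gq-coupled receptors fell with Sox11 and 1 rose, 3 of 19 Gi-coupled receptors fell and 3 rose, and 2 of 8 Gs-coupled receptors fell and 0 rose, where 10.2% of all genes fell and 9.96% rose. The median log2 fold change was -1.58 for the Gq group, -1.02 for the Gi group and -0.90 for the Gs group. The remaining 3 tested receptors, which couple to several G proteins, had 0 past the threshold. Differences between these groups were not tested.

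Sox11 K91A against control asked the same of the mutant. With Sox11 K91A, 6 of 41 receptors passed (14.6%), all of them lower than control, where 10.6% of all tested genes passed (4.81% lower and 5.81% higher). The 6 were Adra1b, Adra2c, Drd1, Htr2a, Sstr3 and Cckbr, and each of them also fell with Sox11. The 2 control libraries served in each of these comparisons. The median log2 fold change of the 41 receptors was -0.57, against 0.02 over all tested genes. Both Sox11 K91A libraries lay below both control libraries for 23 receptors (56.1%, against 30.6% of all genes) and above them for 6 (14.6%, against 31.2%), in all 29 without overlap (70.7%, against 61.9%). By limma-voom, 0 of 41 passed without control replicate 2 and 0 without Sox11 K91A replicate 1 (16 and 7 at an unadjusted p under 0.05), and in each case 0% of all genes passed. Without Sox11 K91A replicate 2, 1 receptor passed (2.44%, against 1.02% of all genes).

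**Figure D3:**
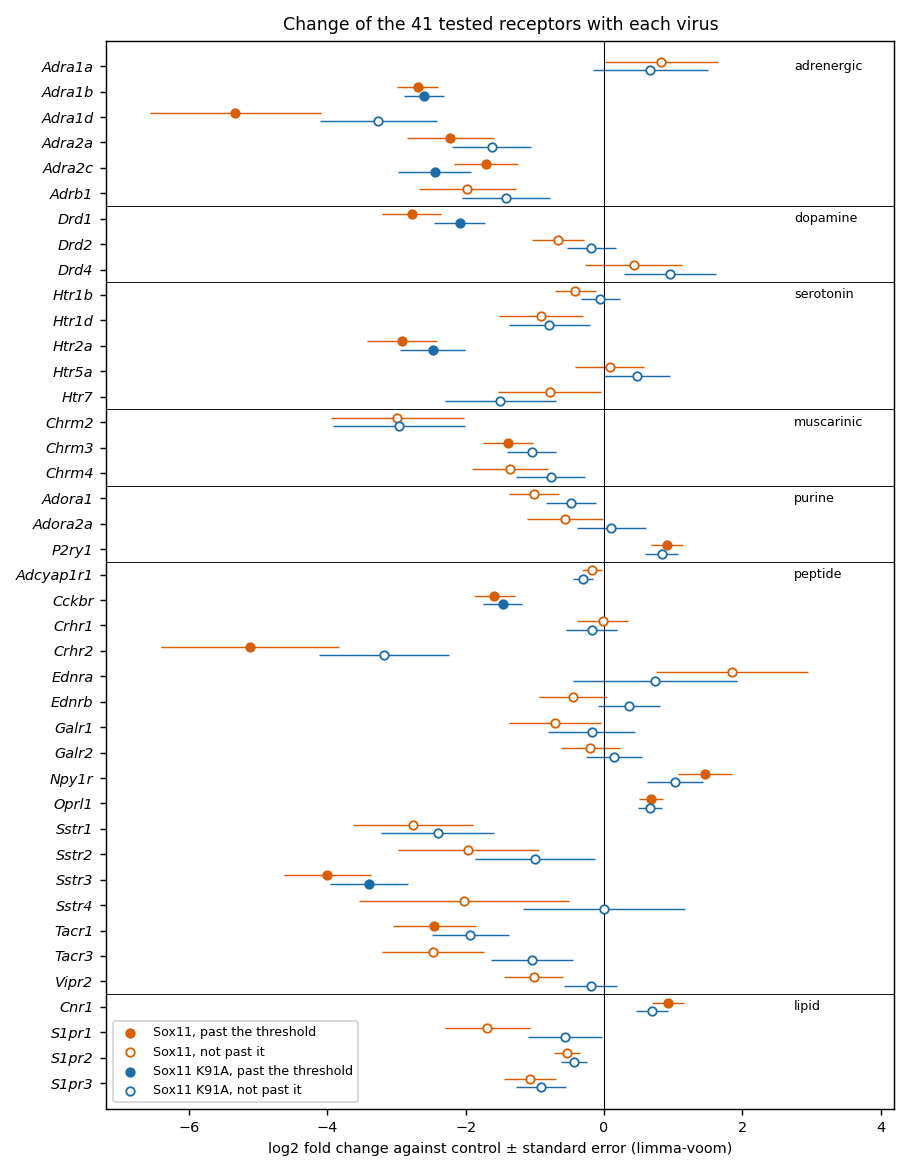
Log2 fold change against control (x axis, with its standard error) of the 41 tested receptors with Sox11 (orange) and with Sox11 K91A (blue), ordered by receptor family, where filled markers passed the threshold. The filled markers lie at 15 receptors for Sox11 and 6 for Sox11 K91A, and both viruses share their control libraries.

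Sox11 K91A against Sox11 asked whether the lost SUMO site altered the response. By limma-voom 0 of the 41 receptors and 0% of all genes passed, with 0 receptors at an unadjusted p under 0.05, and edgeR and DESeq2 also called 0 receptors. The log2 fold changes of the receptors ran from -1.11 (Ednra) to 2.07 (Adra1d), with a median standard error of 0.60. They were positive for 31 of 41 receptors, with a median of 0.39 against 0.01 over all tested genes. The Sox11 K91A libraries did not overlap the Sox11 libraries for 6 receptors (14.6%, against 26.6% of all genes). Sox11 replicate 2 was the lowest of all 6 libraries for 24 of the 41 tested receptors (28.9% of all genes) and lay below Sox11 replicate 1 for 31 of 41 (50.3% of all genes), and for all 11 receptors that fell with Sox11. The median difference between replicates of the receptors was 0.65 on the log2 scale in the Sox11 group, 0.34 in control and 0.23 with Sox11 K91A, against 0.23, 0.30 and 0.14 over all tested genes. At this spread the test shows neither a difference nor its absence.

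The summed levels of cell type markers differed between the libraries. The 9 RGC markers summed to 8936 and 8124 TPM in control, 6484 and 3976 with Sox11, and 5388 and 6610 with Sox11 K91A. Of these 9, Nefl, Slc17a6 and Thy1 fell with Sox11, where 10.2% of all genes fell, and Slc17a6 with Sox11 K91A, where 4.81% fell. Thy1, the antigen of the immunopanning, was at 725 and 689 CPM in control, 259 and 46.3 with Sox11, and 154 and 312 with Sox11 K91A. Its log2 fold changes were -2.69 and -1.69, and those of Nefl -1.16 and -0.87. With Sox11, Rbpms and Pou4f1 had log2 fold changes of -0.18 and -0.17, and Pou4f3 and Isl1 of 0.28 and 0.05. The 7 amacrine markers summed to 124 and 41.7 TPM in control, 63.1 and 26.5 with Sox11, and 60.6 and 57.1 with Sox11 K91A. Of the 7, Slc6a9 alone fell with each virus, where 10.2% of all genes fell with Sox11 and 4.81% with Sox11 K91A. Fitted values of the markers lay on both sides of 0. The amacrine transcription factors Tfap2a and Tfap2b had log2 fold changes of 2.06 and 1.15 with Sox11 and 2.62 and 2.13 with Sox11 K91A. Those of Chat, which makes acetylcholine, were 2.66 and 3.01, and those of Slc32a1, the vesicular GABA transporter, 0.22 and 1.25. None of them passed the threshold, and the control and Sox11 libraries overlapped for each. Chat had 28 and 0 counts in control, 27 and 12 with Sox11 and 26 and 20 with Sox11 K91A, so its fold changes rested on control replicate 2. Tfap2a (90 and 14 counts in control) and Tfap2b (308 and 93) were also lower in that library. In the Sox11 libraries, Tfap2a was at 6.51 and 2.65 CPM and Tfap2b at 20.7 and 5.79. By CPM, each of the 7 amacrine markers was lower in replicate 2 than in replicate 1 of both control and Sox11. Both Sox11 K91A libraries lay above both control libraries for Tfap2a and Tfap2b. Gad1, which makes GABA, had 1011 and 109 counts in control, 480 and 74 with Sox11, and 635 and 501 with Sox11 K91A, low in control replicate 2 and Sox11 replicate 2. Gad2, also an enzyme of GABA synthesis, was at 71.5 CPM in control replicate 2, below the 140 CPM of control replicate 1 and above the 4 libraries with Sox11 or Sox11 K91A (20.6 to 52.6 CPM). Of the 41 tested receptors, 21 were lower in both control replicate 2 and Sox11 replicate 2 than in the other library of their group (51.2%, against 28.2% of all tested genes), as with Htr5a at 16.7 and 7.32 CPM in control and 17.7 and 7.51 with Sox11. The 7 markers of Muller glia and astrocytes summed to 88.7 and 81.3 TPM in control and to 211 to 258 TPM in the 4 other libraries, most of it Glul, which rose with both viruses. Rlbp1 of the same list had log2 fold changes of -2.51 with Sox11 and -2.70 with Sox11 K91A, and Slc1a3 of -2.13 and -1.10. Those of Apoe were -0.30 and 0.02, and those of Aldh1l1 0.88 and 1.00. Of the list, Glul alone passed the threshold (1 of 5 tested, where 9.96% of all genes rose with Sox11 and 5.81% with Sox11 K91A). Gfap and Aqp4 were not tested. The 8 microglial markers summed to at most 5.11 TPM, the 7 endothelial markers to at most 6.94 TPM, the 7 of pericytes to at most 29 TPM, the 5 of fibroblasts to at most 8.75 TPM, the 6 of the oligodendrocyte lineage to at most 24.7 TPM, the 6 of photoreceptors to at most 2.14 TPM, the 4 of bipolar cells to at most 2.55 TPM and the 6 of dividing progenitors to at most 14.5 TPM in any library. Among these lists, the endothelial markers Pecam1 and Tek rose with Sox11 K91A (2 of 5 tested, where 5.81% of all genes rose). The fibroblast marker Pdgfra rose with Sox11 (1 of 5 tested, where 9.96% of all genes rose). Pecam1 and Tek also lay above control with Sox11 without passing (log2 fold changes of 1.76 and 2.18), as did Pdgfra with Sox11 K91A (2.26). Of the same lists, Flt1, Col1a2 and Dcn were below 0 with Sox11 K91A (-1.45, -0.89 and -1.05). The part of these cells in the receptor changes was not tested.

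Downstream of the receptors, 81 transduction genes in 7 lists were examined, of which 80 were in the tables and 74 tested. With Sox11, 26 passed, 12 higher and 14 lower (35.1%, against 20.1% of all genes), and with Sox11 K91A 14 passed, 6 higher and 8 lower (18.9%, against 10.6%). By limma-voom 0 differed between the viruses, with 0 at an unadjusted p under 0.05. Without Sox11 replicate 2, 0 of the 74 passed with Sox11 by limma-voom (25 at an unadjusted p under 0.05), and 13 to 15 without control replicate 2 or either Sox11 K91A library. With Sox11 K91A, 0 passed by limma-voom without control replicate 2 or Sox11 K91A replicate 1 (44 and 16 at an unadjusted p under 0.05), 3 without Sox11 K91A replicate 2 and 22 without control replicate 1.

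The RGS proteins, which speed up the return of G alpha subunits to their inactive state, held 4 genes that rose and 2 that fell with Sox11, among 15 tested (26.7% and 13.3%, against 9.96% and 10.2% of all genes). Rgs16 had 39 and 37 counts in control, 614 and 1507 with Sox11, and 1261 and 493 with the mutant, or a log2 fold change of 4.82 ± 0.92 (adjusted p = 0.0195) and 4.50 ± 0.93 (adjusted p = 0.0326). Rgs3 rose by a log2 fold change of 1.63 with Sox11 and 1.68 with Sox11 K91A, and Rgs12 by 1.53 and 1.56. Rgs11, a member of the family that pairs with Gnb5, fell by 2.19 and 1.79 on the log2 scale. Among 14 G beta and gamma subunits, Gng2 rose by 1.78 and 1.49 on the log2 scale, and Gnb4 fell by 1.16 and 1.08. Gnb2, Gnb5 and Gng3 fell with Sox11, and Gng12 with Sox11 K91A. With Sox11, 7.14% of these subunits rose and 28.6% fell, against 9.96% and 10.2% of all genes. Among 12 G alpha subunits, Gnaz, of the Gi class, fell with both viruses (by 0.85 and 0.83) and Gnaq, the main Gq subunit, rose with Sox11 by 0.58 (adjusted p = 0.0363). With Sox11 these were 8.33% lower and 8.33% higher, below the shares of all genes (10.2% and 9.96%).

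Of 8 adenylyl cyclases, Adcy2 fell with both viruses, by 0.98 and 0.79 on the log2 scale, and Adcy7 with Sox11 by 1.67. With Sox11, 25% of them fell and 0% rose, against 10.2% and 9.96% of all genes. Of 14 phosphodiesterases, which break down cyclic nucleotides, 5 rose and 2 fell with Sox11 (35.7% and 14.3%, against the same shares of all genes, 9.96% and 10.2%). Pde8b fell from 28.7 and 17.9 CPM in control to 4.19 and 3.29 with Sox11 and 3.10 and 6.69 with Sox11 K91A, and its log2 fold changes were -2.59 and -2.30. Pde4d rose by 1.58 and Pde10a by 1.31 on the log2 scale with Sox11, and Pde4a fell by 1.29. Of 7 receptor kinases and arrestins, which shut receptors off, Grk2, Arrb1 and Arrb2 fell with Sox11, by 0.78, 0.68 and 0.69 on the log2 scale, and Grk5 rose by 1.13. These were 42.9% lower and 14.3% higher, against 10.2% and 9.96% of all genes. Grk2 fell with Sox11 K91A as well (by 0.64, adjusted p = 0.0492). Of 4 phospholipase C beta genes, 0 passed in any comparison by limma-voom, with 1 at an unadjusted p under 0.05 with each virus against control.

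Beyond the 56 genes, 33 further receptors of the same families were listed, of which 32 were in the tables and 12 tested. With Sox11, 4 rose and 0 fell, or 33.3% higher and 0% lower, against 9.96% and 10.2% of all genes. The filter can admit a gene through the groups where it is high alone. How many of the 12 passed in that way was not examined, so these shares describe the list and do not test it. With Sox11 K91A, 3 rose and 0 fell, or 25% higher and 0% lower, against 5.81% and 4.81% of all genes. Lpar6, a lysophosphatidic acid receptor, had 85 and 161 counts in control, 450 and 861 with Sox11 and 624 and 421 with Sox11 K91A, and its log2 fold changes were 2.52 and 2.21. Lpar4 rose with Sox11 by 3.88 on the log2 scale, and Hrh3, the histamine H3 receptor, by 2.94 with Sox11 and 2.76 with Sox11 K91A. Sctr, the secretin receptor, had 1 and 2 counts in control, 27 and 36 with Sox11 and 58 and 31 with Sox11 K91A. The means of these 2 groups were 11.2-fold and 15.5-fold the floor of 3 counts per library in control. Sctr passed the filter only through the libraries with Sox11 or Sox11 K91A, so it could be tested only for a rise. With Sox11, 1 of the 12 passed without control replicate 1, 1 without control replicate 2 and 0 without Sox11 replicate 2 (limma-voom, 6 at an unadjusted p under 0.05). With Sox11 K91A, 0 passed without either control or either Sox11 K91A library (limma-voom, 4 to 6 at an unadjusted p under 0.05).

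**Figure D4:**
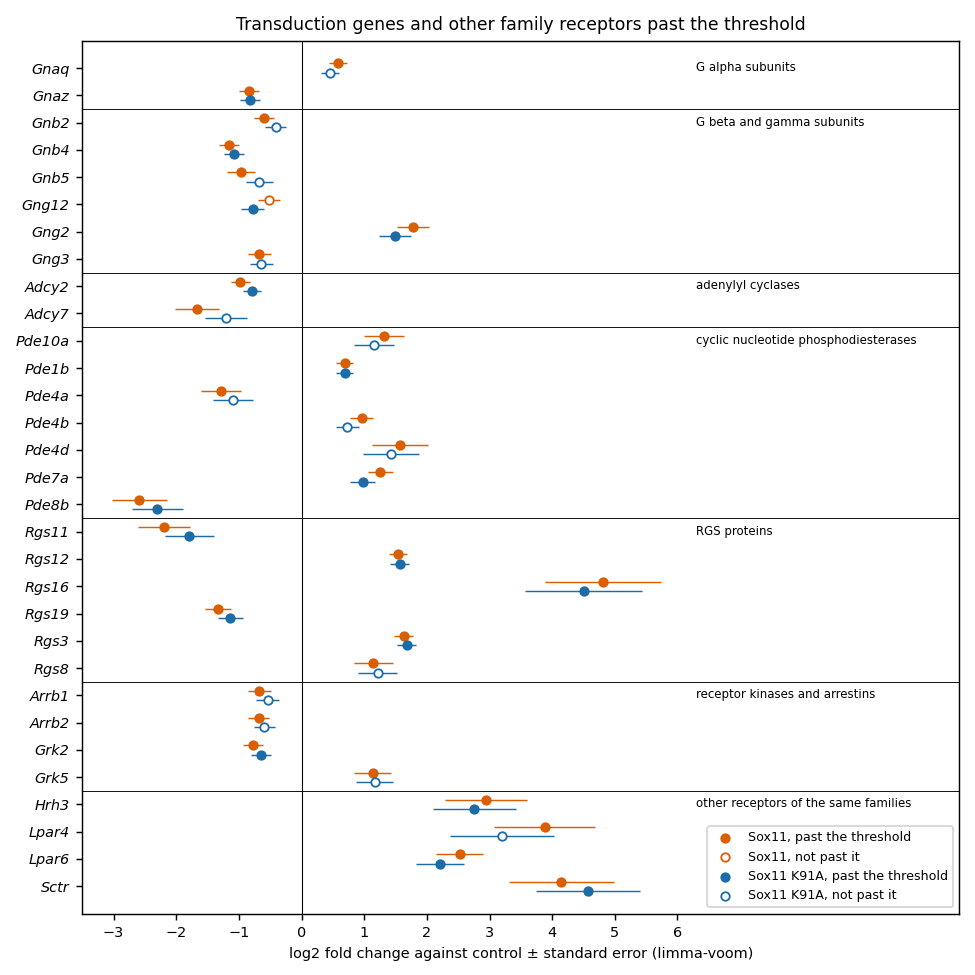
Log2 fold change against control (x axis, with its standard error) of the transduction genes and further family receptors that passed the threshold with Sox11 (orange) or Sox11 K91A (blue), filled where they passed. Rgs16 lies farthest to the right at 4.82 and 4.50 and Pde8b farthest to the left at -2.59 and -2.30.

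For the receptors that passed, the 250 bases before their transcription starts were read from RefSeq (GRCm38.p6), which held promoters for 47 of the 56 receptors and 14 of the 15 that passed. The Sox motifs ACAAAG and ACAATG were searched on both strands. A gene can have several promoters. At least one of the motifs was found in 13 of 61 promoters of the receptors (21.3%), in 1 of 13 of those that fell with Sox11 (7.69%) and in 3 of 8 of those that rose (37.5%), against 25.2% of 32851 promoters of all genes. By gene, this was 10 of 47 receptors, 1 of 10 that fell and 2 of 4 that rose. A match is a description of these letters and was not tested for binding. At receptors that passed, each 250-base window with a match overlapped an annotated exon of its own gene. The Oprl1 and Tacr1 matches lay inside the annotated genes, before further starts. Shown in capitals are the 4 matches at receptors that passed, each within a window of the genome given 5′ to 3′ on the gene's strand, for Oprl1 (chr2:181715135-181715164 and chr2:181715542-181715571, plus strand), Cnr1 (chr4:33924568-33924597, plus strand) and Tacr1 (chr6:82402387-82402416, plus strand), where the Oprl1 matches are on the opposite strand.
Oprl1, first window: cattactcagttCATTGTgctcctgcctgc
Oprl1, second window: ccatgtgtatgcCTTTGTctgtgtccatgt
Cnr1: tgccagggcaggACAAAGgctcattaacac
Tacr1: gggaccaagtcaACAAAGtagctggggaaa

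Full upstream windows are shown as examples for Cnr1, which rose, and for Adra1b and Cckbr, which fell with both viruses. The windows shown overlapped no annotated exon (GENCODE M21). Windows of Oprl1, Crhr2, Sstr3 and Drd1 that are not shown also overlapped none. Cnr1 lies on chr4:33924593-33948831 (plus strand), Adra1b on chr11:43774606-43901210 (minus strand) and Cckbr on chr7:105425731-105470898 (plus strand). The Cnr1 window (chr4:33924014-33924263) was 79.2% G and C and held 5 copies of the GC box GGGCGG or its reverse complement, in capitals. The Adra1b window (chr11:43901238-43901487) was 41.6% G and C and the Cckbr window (chr7:105425481-105425730) 53.6%, with 0 copies in each, whereas 32.7% of all promoters held at least one. A further Adra1b start, downstream, also without an overlapping exon (chr11:43836490-43836739), was 72.8% G and C and held 1 copy. None of these 4 windows held either Sox motif. The windows of further Cnr1 starts, which overlapped its own exons, were 68.8% and 49.2% G and C with 0 copies of the GC box. Over all receptors that passed, the GC box was in 2 of 8 promoters of those that rose (25%). It was in 4 of 13 of those that fell (30.8%), and in 29 of 61 promoters of the listed receptors (47.5%).
Cnr1: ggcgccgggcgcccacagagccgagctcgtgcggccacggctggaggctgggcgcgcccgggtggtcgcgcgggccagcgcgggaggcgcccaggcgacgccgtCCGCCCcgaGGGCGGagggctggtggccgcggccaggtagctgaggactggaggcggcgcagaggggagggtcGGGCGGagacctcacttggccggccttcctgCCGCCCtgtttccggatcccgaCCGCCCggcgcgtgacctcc
Adra1b: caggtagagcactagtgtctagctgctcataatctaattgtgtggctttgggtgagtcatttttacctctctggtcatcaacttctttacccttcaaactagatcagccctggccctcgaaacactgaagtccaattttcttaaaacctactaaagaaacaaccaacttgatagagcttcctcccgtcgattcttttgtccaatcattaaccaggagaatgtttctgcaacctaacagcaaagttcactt
Cckbr: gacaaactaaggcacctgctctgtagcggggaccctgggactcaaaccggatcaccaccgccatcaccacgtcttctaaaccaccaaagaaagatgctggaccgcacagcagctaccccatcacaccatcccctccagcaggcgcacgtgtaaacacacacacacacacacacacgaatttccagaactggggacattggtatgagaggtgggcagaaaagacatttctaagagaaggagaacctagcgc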

How the data were processed

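The authors aligned RNA-seq reads to mm10 with STAR and counted genes with RSEM on DNAnexus; versions, annotation and strand setting are not given in the sources used here. The deposited tables hold RSEM expected counts and TPM (levels corrected for library size and transcript length) per gene, and the posterior standard deviation of each count, a measure of other kind that the authors also deposited (at most 5.94 reads for a receptor past the threshold, for P2ry1, and 0 for the others). Symbols were matched through GENCODE M21 for 42462 of 43346 Ensembl genes (98%). The tables also hold 26248 numbered entries with 1 count in all and 96 spike-in entries with 0, which were left out.

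Expected counts were rounded, filtered with filterByExpr, scaled by TMM and tested with limma-voom (limma 3.58.1, edgeR 4.0.16, R 4.3.3) in one fit of all 6 libraries, with thresholds of adjusted p under 0.05 and fold change above 1.2 as in the study's methods. Scripts were tested on simulated data. CPM is the count scaled to library size with TMM. Alternatives were edgeR's quasi-likelihood test, DESeq2 1.42.0, other scalings and filters, sample quality weights, fits of 2 groups, a replicate block, no rounding, and leaving out each library. Members and lists were chosen with earlier results of these data known. Genes were named by rule: all 56 members, in full where they passed the threshold, the 10 highest by control TPM, and from each list the largest changes past the threshold, up to 4 a list. Other genes named by value were chosen after their values were seen. Pde2a and Galr3 were not matched in the tables. Promoters came from RefSeq.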

Additional observations from a re-analysis of the deposited data

How the results depend on the processing

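Each alternative was fitted to all genes, and the counts below cover every listed receptor it tested. Values per receptor were kept only where the groups did not overlap, for 29 receptors with Sox11 and 29 with Sox11 K91A. The 29 were not all the same receptors with the 2 viruses, and the other 12 of 41 were not followed. Between the viruses, 6 were followed. None of the values kept reversed in direction. Of 266 values of the 15 receptors past the threshold with Sox11, 84 lost the call, and of 107 values of the 6 with Sox11 K91A 18 did. The 15 receptors past the threshold with Sox11 numbered 12 with edgeR's quasi-likelihood test, 20 with DESeq2, 15 with DESeq2's size factors and with library size alone, 4 with sample quality weights, 7 in a fit of the 2 groups, and 0 to 15 with each library left out. The 6 with Sox11 K91A numbered 6 with edgeR, 14 with DESeq2 and 0 to 8 with each library left out. Transduction genes with Sox11 (26) numbered 8 with quality weights, 14 in the fit of 2 groups and 0 to 27 with each library left out, and with Sox11 K91A (14) 30 with DESeq2 and 0 to 22. The 4 further receptors with Sox11 numbered 2 at 10 counts or more in every library, 1 with quality weights and 0 to 5 with each library left out; the 3 with Sox11 K91A numbered 1 with quality weights and 0 to 4. Over all genes, 0 passed with Sox11 without Sox11 replicate 2 (limma-voom, 3349 at an unadjusted p under 0.05), and with Sox11 K91A 0 passed without control replicate 2 or Sox11 K91A replicate 1 (4703 and 1915). With Sox11, Adra1b, Drd1 and Htr2a kept their call in 17 of 18 alternatives, Sstr3 in 16 of 17, Cckbr in 15 of 18, Adra1d in 14 of 17, Chrm3 and Cnr1 in 12 of 18, Adra2a in 11 of 18, Tacr1 in 10 of 17, P2ry1, Npy1r and Oprl1 in 9 of 18, Adra2c in 8 of 18 and Crhr2 in 6 of 17.

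The replicate numbers did not pair the libraries: deviations of libraries with the same number correlated at 0.30 (control and Sox11), -0.05 (control and Sox11 K91A) and -0.42 (Sox11 and Sox11 K91A). A replicate block gave 11 receptors with Sox11 and 10 with Sox11 K91A, and 25 and 14 transduction genes. Another 2 blocks were chosen after seeing the data. With the Sox11 K91A numbers crossed, 19 and 14 receptors and 38 and 26 transduction genes passed, and with a block for the 2 libraries low in Xist, 19 and 13 receptors and 41 and 28 transduction genes. The cause of these differences was not tested.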
